A study of Mus musculus with 6 samples.

Results

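Fc receptors and the ITAM and ITIM receptors that signal like them were measured through 10 genes in subcutaneous inguinal white fat of mice given a high-fat diet. The genes were taken by name: Fcgr1, Fcgr3, Fcgr4, Fcer1g, Tyrobp and Syk on the activating side, and Fcgr2b, Sirpa, Cd72 and Cd22 on the inhibitory side, out of 24984 genes listed. All 10 were among the 14065 genes with enough counts to be tested. Bulk RNA sequencing gave 6 libraries, 3 from wild-type mice and 3 from Mpst knockout mice, and both groups had the high-fat diet. The sources used here do not give the age, sex, strain, time on the diet or the cells in which Mpst was deleted. Mpst encodes a sulfurtransferase that produces hydrogen sulfide, and the comparison asks how adipose tissue under this diet differs without it.

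Fc gamma receptors sit on macrophages and other leukocytes and bind the constant part of IgG. FcγRI, FcγRIII and FcγRIV of the mouse signal through the FcRγ chain, whose tyrosine motif, the ITAM, is phosphorylated by Src-family kinases and then recruits the kinase SYK. DAP12 is a second ITAM adaptor, used among others by TREM2. FcγRIIB, SIRPα, CD72 and CD22 carry the inhibitory motif, the ITIM, in their own tails, which recruits the phosphatases SHP-1 or SHIP1 and damps that signal. In fat, receptors of this kind are known mainly from macrophages, while CD22 and CD72 are best known from B cells.

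The deleted gene was checked first. Mpst had 1358, 1394 and 1624 counts in wild-type replicates 1, 2 and 3 and 3, 10 and 9 counts in knockout replicates 1, 2 and 3, so each library matched its label. Depth ranged from 8054560 counts in knockout replicate 1 to 22458630 in knockout replicate 2. The labels number the replicates without saying that they are separate animals, so the spread behind each p-value may be technical. Adipocyte markers summed to 57790–67260 CPM in wild type, against 39577–47735 CPM in knockout, so the tissue label held in all 6 libraries. CPM are counts scaled to a common library size after normalisation. Skeletal muscle markers summed to 49.5–1053 CPM in wild type, against 47.6–2493 CPM in knockout. They were high in wild-type replicate 2 and knockout replicate 3, one library of each genotype.

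Read sharing touched 4 of the genes at the read length of 75 bp. Fcgr2b and Fcgr3 lie on the minus strand of chromosome 1 (GRCm38; Fcgr2b at 170958617–170976547, Fcgr3 at 171051174–171064935), with Fcgr4 between them at 171018920–171029761 on the plus strand. Their longest protein-coding transcripts have 129 coding bases in common, exons at chr1:170967980-170968081 and chr1:170966674-170966700 of Fcgr2b and at chr1:171057691-171057792 and chr1:171054167-171054193 of Fcgr3. The stretch is printed because a read inside it cannot be placed in 1 gene.
Fcgr2b and Fcgr3: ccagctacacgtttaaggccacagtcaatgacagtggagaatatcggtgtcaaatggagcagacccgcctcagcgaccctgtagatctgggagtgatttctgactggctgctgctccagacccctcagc
Of the 75-base windows of the Fcgr3 transcript, 7.38% were found in Fcgr2b, and of those of Fcgr2b, 2.71% were found in Fcgr3 and 9.25% in any other gene. For Cd72 (chromosome 4, 43446462–43454628, minus strand), 53.8% of the windows were also found in Tesk1, whose exons overlap 41.6% of the exon bases on the opposite strand. The library kit does not mark strand, so reads from that overlap cannot be told apart by strand. Tesk1 itself had 38.4 ± 3.03 CPM in wild type and 41.4 ± 1.65 in knockout (each SD, n = 3), with a log2 fold change of 0.11 (adjusted p = 0.569). Cd22 shares 8.08% of its windows with Gm29439, an antisense gene not analysed here.

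Promoter windows from 250 bases before to 50 after the start were read from RefSeq (GRCm38.p6) for 8 of the 10 genes, and Tyrobp and Sirpa had no entry. They were searched on both strands for GAGGAA, a core of the kind bound by PU.1 and other ETS factors, which are known from myeloid and B cells. It occurred in 28.3% of all 32851 windows of this length and in 6 of the 10 windows of these 8 genes. Those windows belong to 5 genes: Fcgr1, Fcgr3, Fcgr4, Cd72 and Syk. Fcgr3 has overlapping windows that each hold it, and Syk holds it only in its window at chr13:52596632-52596931. The 4 printed are the called receptor genes that hold it, each written 5′ to 3′ on the gene's own strand, with the match in capitals as its reverse complement TTCCTC.
Fcgr1, chr3:96293920-96294219, minus strand: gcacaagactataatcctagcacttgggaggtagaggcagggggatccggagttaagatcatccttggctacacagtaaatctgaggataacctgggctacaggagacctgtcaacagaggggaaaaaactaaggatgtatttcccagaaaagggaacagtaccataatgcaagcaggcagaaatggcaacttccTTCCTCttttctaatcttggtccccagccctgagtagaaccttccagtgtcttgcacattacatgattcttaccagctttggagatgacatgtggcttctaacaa
Fcgr3, chr1:171059354-171059653, minus strand: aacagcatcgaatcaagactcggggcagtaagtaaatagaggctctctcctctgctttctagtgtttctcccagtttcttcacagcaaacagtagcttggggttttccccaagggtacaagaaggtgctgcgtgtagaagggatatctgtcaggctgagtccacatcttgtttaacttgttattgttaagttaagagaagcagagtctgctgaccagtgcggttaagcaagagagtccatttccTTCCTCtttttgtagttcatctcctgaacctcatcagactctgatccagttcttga
Fcgr4, chr1:171018676-171018975, plus strand: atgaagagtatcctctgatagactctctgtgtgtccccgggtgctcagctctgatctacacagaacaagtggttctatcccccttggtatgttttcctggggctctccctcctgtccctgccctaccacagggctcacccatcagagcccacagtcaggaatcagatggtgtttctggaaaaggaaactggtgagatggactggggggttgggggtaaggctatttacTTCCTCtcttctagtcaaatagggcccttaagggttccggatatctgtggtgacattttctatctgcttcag
Cd72, chr4:43454577-43454876, minus strand: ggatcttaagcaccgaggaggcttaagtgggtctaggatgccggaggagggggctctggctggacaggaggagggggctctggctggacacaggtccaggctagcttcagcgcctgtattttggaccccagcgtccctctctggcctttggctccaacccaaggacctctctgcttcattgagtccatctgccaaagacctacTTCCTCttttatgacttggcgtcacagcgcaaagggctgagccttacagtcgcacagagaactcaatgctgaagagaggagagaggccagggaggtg
The match began at −55 in Fcgr1, −6 in Fcgr3, −22 in Fcgr4 and −47 in Cd72, counted from the start. In the other Fcgr3 window, which has its own start, it began at −15. The longer form GAGGAAGT, which contains the shorter one, occurred in 3.20% of all windows and in those of Fcgr4 and Cd72. These are matches of letters and do not show binding.

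In the knockout libraries, 6 of the 10 genes were higher and none was lower. The activating side had 3 of 6 higher (Fcgr1, Fcgr3 and Fcgr4) and the inhibitory side 3 of 4 (Sirpa, Cd72 and Cd22), by edgeR's quasi-likelihood test with Benjamini-Hochberg adjusted p under 0.05. Over all tested genes 4.76% were higher and 2.65% lower at that threshold. Fcer1g, Tyrobp, Syk and Fcgr2b did not pass. For 8 of the 10 genes each knockout library lay above each wild-type library, a separation that 17.8% of all tested genes had, with 15.5% separated the other way. The median log2 fold change was 0.80 for the activating genes and 1.36 for the inhibitory genes, against 0.0052 for all tested genes. In bulk tissue, more cells of a type and more RNA per cell cannot be told apart.

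DESeq2 called 7 of the 10 higher, where 7.8% of its genes were higher and 6.49% lower. With offsets for GC content and length edgeR also called 7, against 2.79% of all genes higher and 2.8% lower. With the replicate number as a block the members called were 6, against 9.86% higher and 9.16% lower. No member was called lower under these 3 rules. The offsets together with the block called 8 members, against 848 genes higher and 1143 lower of 14065 tested. Thinned libraries called 5, against 588 higher and 333 lower of 13026. A minimum of 10 CPM on average, which left 7 members tested, called 3, against 555 higher and 330 lower of 9520.

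**Figure D1:**
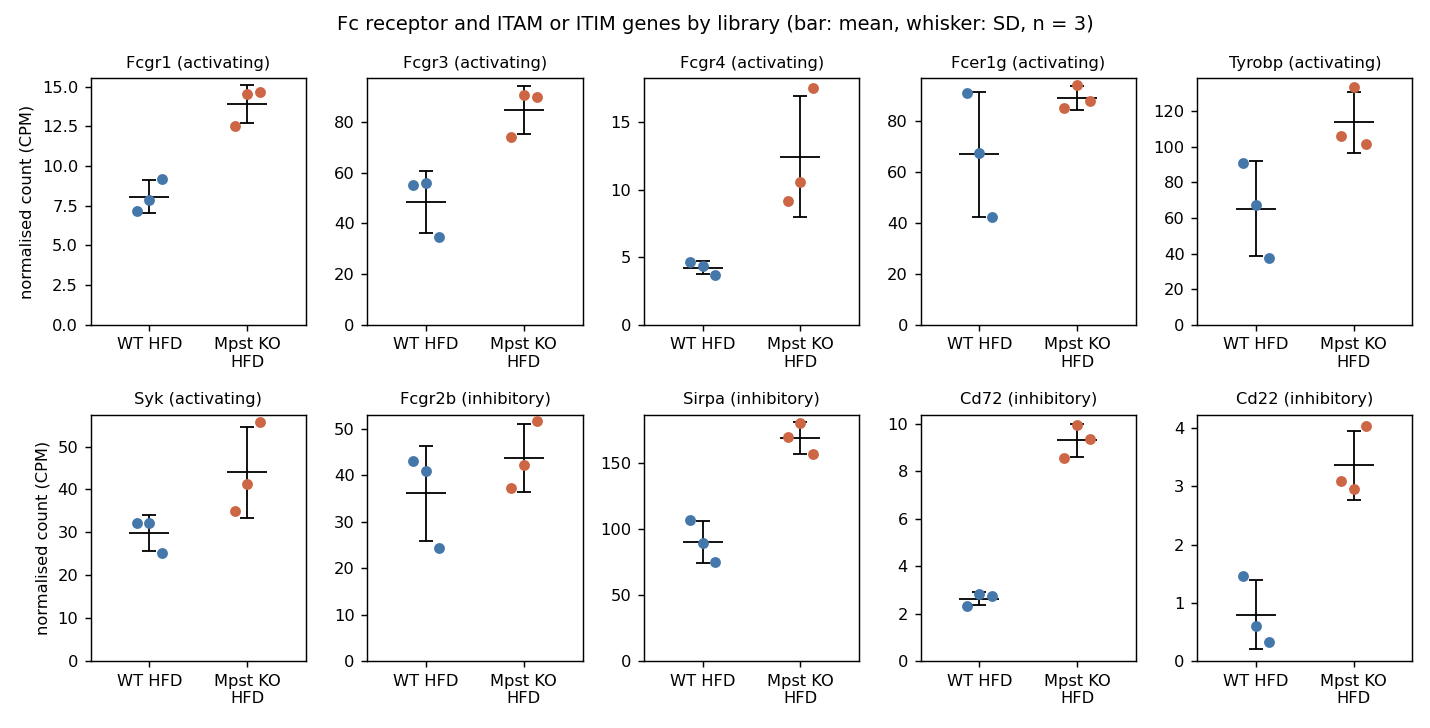
Normalised counts (CPM, y axis from 0) of the 10 genes, 1 panel per gene and 1 point per library, with the mean as a bar and the SD as a whisker (n = 3 per genotype). Knockout points lie above wild-type points in 8 panels and overlap them in the panels of Fcer1g and Fcgr2b.

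**Figure D2:**
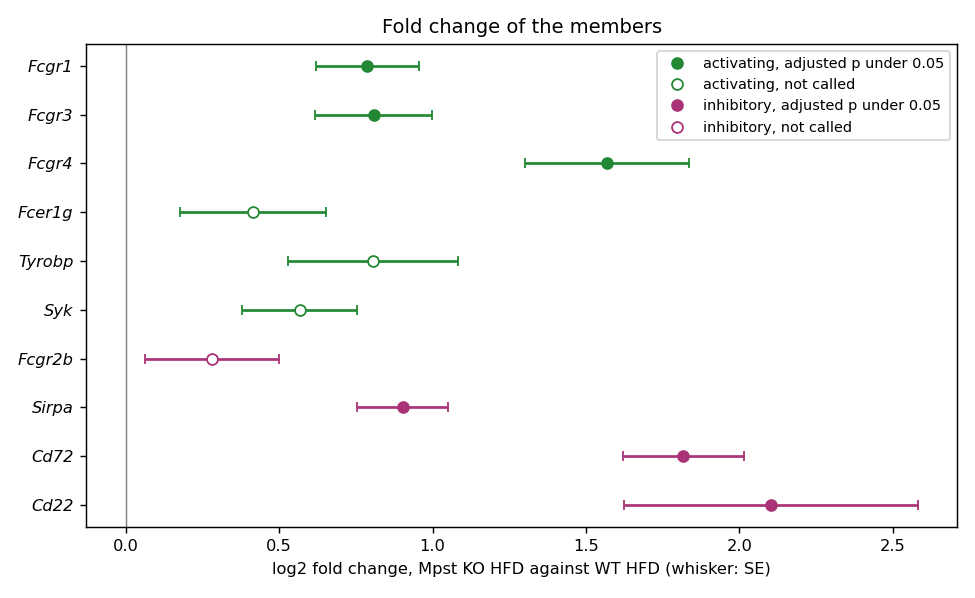
Log2 fold change of each gene in Mpst knockout against wild type on the x axis, with its SE as a whisker; filled symbols passed the test and open symbols did not. Cd22 (2.10), Cd72 (1.82) and Fcgr4 (1.57) lie farthest to the right, and Fcgr2b (0.28) lies nearest to 0.

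Among the activating receptors, Fcgr1, which encodes the high-affinity IgG receptor (chromosome 3, 96282909–96293969, minus strand), stood at 7.17, 7.84 and 9.19 CPM in wild-type replicates 1, 2 and 3 and at 12.5, 14.5 and 14.7 CPM in the knockout replicates. The knockout libraries lay close together and above the wild type. The rise was 1.73-fold (log2 fold change 0.79, SE 0.17, adjusted p = 0.0315). Knockout replicate 1, the shallowest library, held 105 counts of Fcgr1 against 330 and 346 in the other two.

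Fcgr3, the low-affinity activating receptor, measured 55.0, 56.0 and 34.5 CPM in wild type, against 73.9, 90.5 and 89.8 CPM in knockout. Wild-type replicate 3 was the lowest library, and the groups did not overlap. Fcgr3 rose 1.75-fold (log2 fold change 0.81, SE 0.19, adjusted p = 0.0401).

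Fcgr4, a receptor for IgG2a and IgG2b in mice, had 4.66, 4.32 and 3.71 CPM in wild type, against 9.18, 10.6 and 17.5 CPM in knockout. The wild-type libraries were nearly level, while knockout replicate 3 was well above the other two. Fcgr4 rose 2.97-fold, the most of the activating genes (log2 fold change 1.57, SE 0.27, adjusted p = 0.0187). Without knockout replicate 3 the log2 fold change was 1.23 (adjusted p = 0.0624), in a fit that called 1 of 14099 tested genes higher.

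Neither ITAM adaptor passed the test. Fcer1g, the FcRγ chain (chromosome 1, 171229572–171234365, minus strand), was listed at 91.0, 67.3 and 42.2 CPM in wild type, against 85.1, 94.1 and 87.6 CPM in knockout. Its wild-type values spread widely and the highest of them lay inside the knockout range. Its log2 fold change was 0.41 (SE 0.24, adjusted p = 0.291). Over 18 other settings Fcer1g was called in 1, with offsets for GC content and length together with the replicate number as a block (adjusted p = 0.0377, range over the settings 0.0377 to 0.599).

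Tyrobp, which encodes DAP12 (chromosome 7, 30413760–30417585, plus strand), had 90.8, 67.0 and 37.5 CPM in wild type, against 106, 134 and 102 CPM in knockout. All knockout values were above the wild type, but the wild-type libraries again fell far apart, with replicate 3 lowest. Its log2 fold change was 0.81 (SE 0.28), as large as that of Fcgr3, with an adjusted p = 0.104. Tyrobp was called in 4 of 18 other settings, DESeq2 among them (adjusted p = 0.0410; range over the settings 0.0131 to 0.398).

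Syk, the kinase that both adaptors recruit (chromosome 13, 52583173–52648792, plus strand), measured 32.2, 32.2 and 25.1 CPM in wild type, against 35.1, 41.2 and 55.8 CPM in knockout. The groups did not overlap, though knockout replicate 1 was close to the wild type. Its log2 fold change was 0.57 (SE 0.19, adjusted p = 0.0927), and it was called in none of the 18 other settings, where its adjusted p ran from 0.0576 with DESeq2 to 0.402.

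On the inhibitory side Fcgr2b, the one Fc gamma receptor with an ITIM, had 43.2, 40.8 and 24.4 CPM in wild type, against 37.3, 42.3 and 51.6 CPM in knockout. The groups overlapped. Its log2 fold change was 0.28 (SE 0.22, adjusted p = 0.441), and none of the 18 other settings called it (adjusted p 0.285 to 0.847).

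Sirpa encodes the receptor for CD47 that restrains phagocytosis (chromosome 2, 129592835–129632228, plus strand). It stood at 107, 89.2 and 75.1 CPM in wild type, against 169.5, 181 and 157 CPM in knockout. Each knockout library was well above the highest wild-type library. Sirpa rose 1.87-fold (log2 fold change 0.90, SE 0.15, adjusted p = 0.0174).

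Cd72, a C-type lectin-like receptor, had 2.33, 2.86 and 2.74 CPM in wild type, against 8.58, 9.95 and 9.38 CPM in knockout. Both groups were tight and far apart. Cd72 rose 3.52-fold (log2 fold change 1.82, SE 0.20, adjusted p = 0.0119). Its counts were 38, 47 and 59 in wild type, against 72, 226 and 221 in knockout, and its antisense neighbour Tesk1, given above, did not pass the test.

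Cd22, a sialic acid-binding lectin (chromosome 7, 30865402–30880342, minus strand), had 1.47, 0.608 and 0.325 CPM in wild type, against 3.10, 2.95 and 4.03 CPM in knockout. Wild-type replicate 1 was the highest of its group and still below the knockout libraries. Cd22 rose 4.29-fold (log2 fold change 2.10, SE 0.48, adjusted p = 0.0370) on 24, 10 and 7 counts in wild type and 26, 67 and 95 in knockout. Without wild-type replicate 1 its log2 fold change was 2.88 (adjusted p = 0.0165). With all libraries thinned to the depth of the smallest, Cd22 was not called (adjusted p = 0.0814; range over 17 settings 0.00135 to 0.356).

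The calls depended on single libraries. Without wild-type replicate 2, knockout replicate 2 or knockout replicate 3 none of the 10 genes was called by edgeR. Without knockout replicate 1, Cd72 alone of the 10 was called (adjusted p = 0.0475, range over 17 settings 1.56e-10 to 0.268). Over all tested genes these 4 fits called 0, 1, 1 and 41 higher and 1, 1, 2 and 5 lower, in the same order. At an unadjusted p under 0.05 these 4 fits held 8, 7, 7 and 8 of the 10 genes, in the same order. Over all tested genes they held 2746 of 14397, 2993 of 14165, 2858 of 14099 and 3040 of 14382 at that threshold. Without wild-type replicate 1, Fcgr1 (adjusted p = 0.0625) and Fcgr3 (adjusted p = 0.0515) were also lost and Tyrobp was gained (adjusted p = 0.0451). With each library left out in turn, the log2 fold change stayed above 0 for each of the 10 genes, with the lowest value at 0.068, for Fcgr2b without wild-type replicate 3.

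Per kilobase of the longest protein-coding transcript, the adaptors were the most abundant and Cd22 the least. Tyrobp had 109 ± 44.8 CPM per kilobase in wild type (SD, n = 3) and Fcer1g 97.8 ± 35.8, which did not differ beyond their spread. Fcgr3 followed at 36.0 ± 9.01 and Sirpa at 22.7 ± 4.0, again with overlapping libraries. Fcgr2b stood at 10.2 ± 2.90 CPM per kilobase and Syk at 5.57 ± 0.765, each clear of its neighbours in the order. Fcgr4 (3.37 ± 0.380) and Fcgr1 (3.12 ± 0.398) overlapped, Cd72 had 1.02 ± 0.107 and Cd22 0.202 ± 0.150. In knockout the order was the same except that Fcgr4, at 9.89 ± 3.56 CPM per kilobase, moved ahead of Syk, at 8.21 ± 1.98, with overlapping libraries. With lengths over all exons Syk and Fcgr4 changed places in wild type. The length used for Cd72 includes the 53.8% of its windows shared with Tesk1, so its level per kilobase and its place in the order are uncertain.

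Ratios taken within a library set the activating receptors against the inhibitory one directly. The ratio of Fcgr3 to Fcgr2b counts was 1.27, 1.37 and 1.42 in wild type, against 1.98, 2.14 and 1.74 in knockout. That of Fcgr4 to Fcgr2b was 0.108, 0.106 and 0.152 in wild type, against 0.246, 0.250 and 0.340 in knockout. Neither ratio overlapped between the genotypes. The ratio of Fcgr1 to Fcgr2b was 0.166, 0.192 and 0.377 in wild type, against 0.335, 0.344 and 0.285 in knockout, and it overlapped. With the 3 activating receptors summed per kilobase, the ratio to Fcgr2b averaged 4.24 ± 0.399 in wild type, against 6.37 ± 0.443 in knockout (SD, n = 3), without overlap. That sum was mostly Fcgr3 in wild type, at 36.0 CPM per kilobase against 3.37 for Fcgr4 and 3.12 for Fcgr1. Relative to Fcgr2b RNA, which all these ratios share, Fcgr3 and Fcgr4 were thus higher in the knockout libraries, while Fcgr1 overlapped. RNA ratios in bulk tissue do not give the balance of receptors on a cell.

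Across all 10 genes the difference between the sides went the other way, towards the inhibitory genes in knockout. The mean log2 CPM of the 6 activating genes minus that of the 4 inhibitory genes was 1.29, 1.45 and 1.47 in wild type, against 0.87, 1.0 and 1.0 in knockout. Cd72 and Cd22, the genes of lowest level, had the largest fold changes of the 10 and lowered this difference. With genes under 10 CPM on average left out, which removes Fcgr4, Cd72 and Cd22, the median fold change of the activating genes exceeded that of the inhibitory ones by 0.20 on the log2 scale, against −0.56 with all 10. No test was made of these ratios and differences.

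Other pairs gave the following ratios. Tyrobp to Fcer1g, the ITAM adaptors, was 0.998, 0.996 and 0.889 in wild type, against 1.24, 1.42 and 1.16 in knockout. Sirpa to Cd47, receptor to ligand, was 1.26, 1.16 and 1.29 in wild type, against 1.94, 2.09 and 2.04 in knockout. Both ratios were higher in each knockout library than in any wild-type library.

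**Figure D3:**
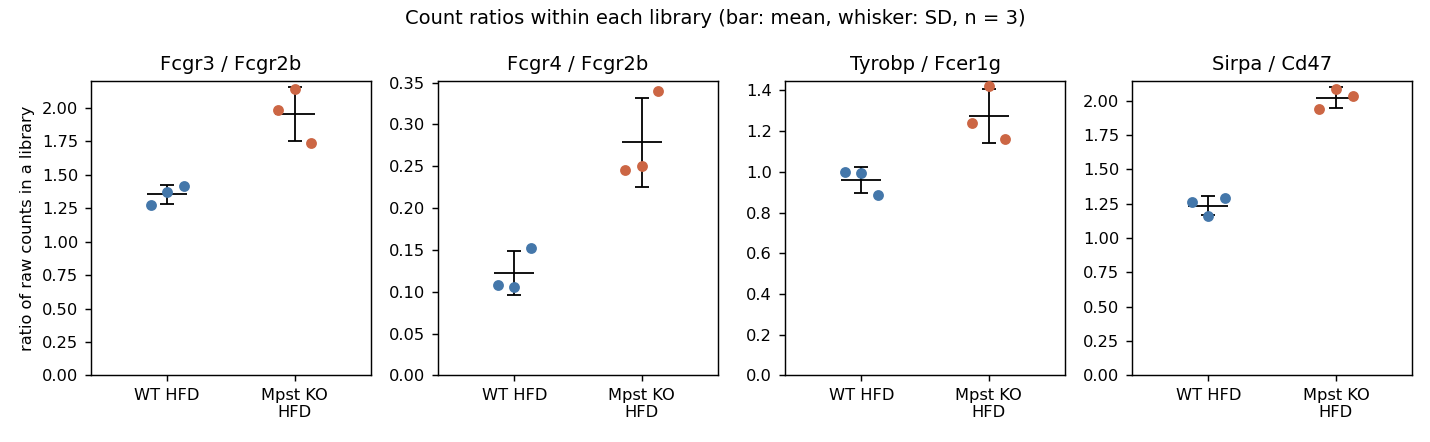
Ratios of raw counts within each library (y axis), 1 point per library, with the mean as a bar and the SD as a whisker (n = 3 per genotype). For Fcgr3 to Fcgr2b the wild-type libraries lie between 1.27 and 1.42 and the knockout libraries between 1.74 and 2.14.

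Of 12 macrophage markers 4 were higher in knockout, none was lower and 8 were not called, with a median log2 fold change of 0.62. Their summed level was 896–1657 CPM in wild type, against 2044–2256 CPM in knockout. Itgam, an integrin of myeloid cells, rose from 9.35 ± 1.48 to 27.2 ± 3.38 CPM, a log2 fold change of 1.55 (adjusted p = 0.0119). Cd163, a marker of resident macrophages, had a log2 fold change of −0.20 (adjusted p = 0.462).

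Set against the mean log2 level of those 12 markers in the same library, the genes fell into an order. Cd22 was higher in knockout by 1.36, Cd72 by 1.02 and Fcgr4 by 0.72 on this relative log2 scale. Sirpa (0.16), Tyrobp (0.13), Fcgr3 (0.075) and Fcgr1 (0.025) had smaller differences, with overlapping libraries. Fcer1g (−0.28) and Fcgr2b (−0.45) lay lower, and their libraries did not overlap on this scale. Syk differed by −0.22 with overlapping libraries, at −0.85 ± 0.19 in wild type and −1.07 ± 0.29 in knockout (SD, n = 3). Taken against each marker separately, the ratio of Fcgr2b was lower without overlap for 7 of the 12 markers and that of Fcer1g for 6. The ratio of Cd22 was higher without overlap for 10 and those of Cd72 and Fcgr4 for 8 each. The part of the macrophage markers in the members' fold changes was not tested.

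**Figure D4:**
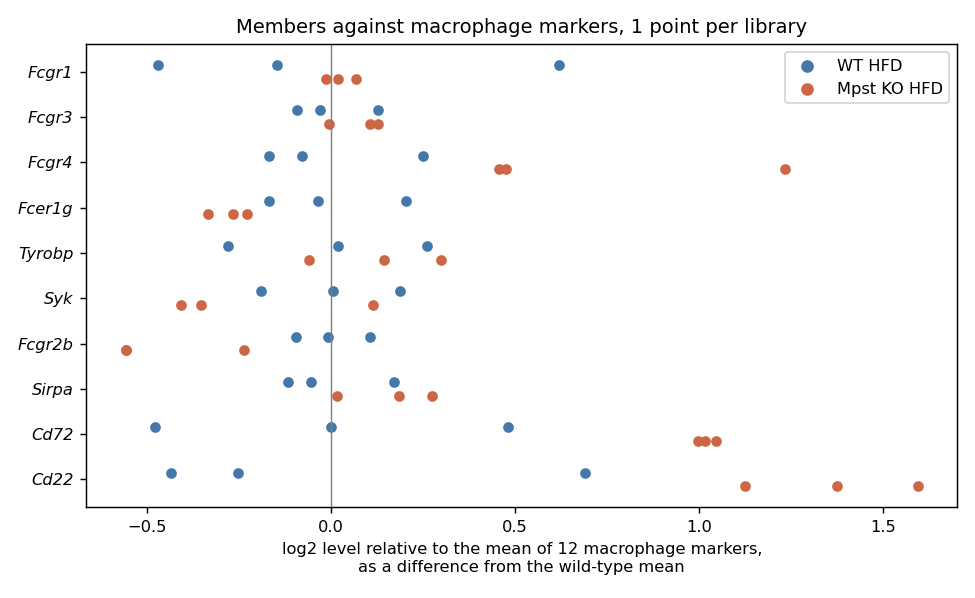
Log2 level of each gene relative to the mean of 12 macrophage markers in the same library, drawn as a difference from the wild-type mean (x axis), with 1 point per library. Cd22, Cd72, Fcgr4 and Sirpa have their knockout libraries to the right of 0, though those of Sirpa overlap the wild type. Fcgr2b and Fcer1g have them to the left.

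B cells were checked because CD22 and CD72 are classed as B cell receptors. None of 10 tested B cell markers was called in either direction by edgeR or DESeq2, and 1 was higher and 1 lower at an unadjusted p under 0.05. Cd37 was the higher marker, at 14.9 ± 5.18 CPM in wild type and 22.7 ± 1.46 in knockout without overlap (log2 fold change 0.61, adjusted p = 0.135). The groups overlapped for the B cell genes Ms4a1, Cd79a and Pax5, which had few counts (Ms4a1 8 to 18 per library). Ms4a1 had 0.612 ± 0.218 CPM in wild type, against 0.933 ± 0.553 in knockout (adjusted p = 0.583), Cd79a 1.31 ± 0.364 and 1.77 ± 0.741 (adjusted p = 0.573), and Pax5 0.683 ± 0.413 and 0.734 ± 0.241 (adjusted p = 0.856). The B cell list summed to 139–153 CPM in wild type, against 116–135 CPM in knockout, and most of that sum was Ebf1, which adipocytes also express (117 ± 5.02 and 91.8 ± 8.52 CPM; log2 fold change −0.36, adjusted p = 0.0919).

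Other leukocyte lists had a median log2 fold change of 1.21 for T cells (10 markers, 1 called, Il7r), 1.10 for natural killer cells (8, none called), 0.66 for mast cells (6, none) and 0.63 for dendritic cells (8, none). Those calls are edgeR's. At an unadjusted p under 0.05 edgeR had 6, 3 and 2 markers higher in the last 3 lists, and DESeq2 called 4 natural killer cell markers, 1 mast cell marker and 1 dendritic cell marker higher. Il7r, the interleukin 7 receptor, rose from 2.0 ± 0.842 to 12.2 ± 1.56 CPM, a log2 fold change of 2.63 (adjusted p = 0.0119). Of the 10 T cell markers 9 had a fold change above 0, but only 3 had each knockout library above each wild-type library. Cd3e, Cd3d, Cd3g, Cd4, Cd8a and Cd8b1 overlapped, with Cd3e at 1.04 ± 0.278 CPM in wild type and 2.50 ± 2.04 in knockout (adjusted p = 0.198). For neutrophils the median was 0.11 over 4 tested markers, and Ngp had 0 counts in all 6 libraries. Fdcsp was not analysed here, and of the other 7 lymph node stroma genes Ccl21a and Glycam1 had 0 counts in all libraries, which at the smallest depth allows up to 3 counts each. Reads without a unique place were not counted, so 0 counts do not show absence. Cxcl13 of the same list had counts in all 6 libraries, at 1.01 ± 0.826 CPM in wild type and 1.45 ± 0.366 in knockout (adjusted p = 0.585). Of 10 adipocyte markers, 2 were lower and the median was −0.33. Of 6 tested plasma cell genes 1 was higher, Jchain, the joining chain of IgA and IgM, at 3.13 ± 0.857 CPM in wild type, against 14.1 ± 10.1 in knockout, a log2 fold change of 2.18 (SE 0.48, adjusted p = 0.0341). Knockout replicate 2 held 25.7 CPM of it, and without that library the log2 fold change was 1.41. The Jchain call was lost with any 1 library left out (adjusted p 0.0601 to 0.138), and 7 of 17 other settings kept it. Endothelial markers had 1 of 7 higher (median 0.26) and fibroblast markers 3 of 7 (median 0.46). The part of these cell types in the members' fold changes was not tested.

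The ligand list could be followed for few genes. Of its 17 genes, 11 immunoglobulin constant-region genes were not analysed here, and 3 had enough counts to be tested. Thbs1, which encodes thrombospondin 1, a ligand of CD47, rose from 26.3 ± 5.25 to 65.8 ± 9.02 CPM, a log2 fold change of 1.32 (adjusted p = 0.0128). Sema4d, a ligand of CD72, rose from 2.86 ± 0.489 to 7.68 ± 1.49 CPM, a log2 fold change of 1.44 (adjusted p = 0.0176). Cd47 stood at 84.8, 77.0 and 58.3 CPM in wild type, against 87.3, 86.4 and 77.0 in knockout. Its groups overlapped and its log2 fold change was 0.19 (adjusted p = 0.459), turning to −0.082 with offsets for GC content and length.

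No Fc receptor outside the gamma family passed the test upward. Of 14 genes in that list 7 were tested, none was higher by edgeR or DESeq2 (1 at an unadjusted p under 0.05), and Fcgrt was lower. Fcgrt encodes the neonatal Fc receptor, which recycles IgG and albumin and is expressed far beyond leukocytes. It measured 525, 599.8 and 565 CPM in wild type, against 385, 377 and 346 CPM in knockout, without overlap. Fcgrt fell by 0.61 on the log2 scale (SE 0.13, adjusted p = 0.0307). With offsets for GC content and length it was not called (log2 fold change −0.46, adjusted p = 0.0573, range over 18 settings 5.36e-05 to 0.314). Fcrls, an Fc receptor-like gene, stood at 42.4 ± 18.1 and 40.9 ± 3.18 CPM, a log2 fold change of −0.05 (adjusted p = 0.929). Fcer1a, the alpha chain of the IgE receptor, reached at most 0.836 CPM and was not tested.

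The list of further activating receptors also holds signalling chains and receptors that need no ITAM adaptor, such as Cd79a and Clec7a. Of its 25 tested genes, 6 were higher and none lower, with a median log2 fold change of 0.73. Cd300lb, a receptor that uses DAP12, rose from 6.53 ± 2.29 to 22.2 ± 3.36 CPM, a log2 fold change of 1.78 (adjusted p = 0.0149). Clec4d, a C-type lectin that signals through the FcRγ chain, rose from 0.713 ± 0.494 to 5.77 ± 2.39 CPM, a log2 fold change of 3.04 (adjusted p = 0.0242). Pira6, an activating paired immunoglobulin-like receptor, went from 0.403 ± 0.190 to 1.99 ± 0.465 CPM, a log2 fold change of 2.30 (adjusted p = 0.0234), and its value is uncertain because its family has near-identical copies. Trem2, the lipid receptor that signals through DAP12, had 30.9, 19.9 and 5.34 CPM in wild type, against 78.6, 93.7 and 51.8 CPM in knockout. The Trem2 groups did not overlap, and wild-type replicate 3 was far below the rest. Its log2 fold change was 2.0 (SE 0.60) and edgeR did not call it (adjusted p = 0.0928), while DESeq2 did.

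Of 23 tested further receptors on the inhibitory list, 7 were higher and none lower, with a median of 0.80. Cd200r1, the receptor of CD200, which inhibits myeloid cells through adaptors rather than an ITIM, rose from 2.52 ± 0.847 to 14.0 ± 2.46 CPM, a log2 fold change of 2.50 (adjusted p = 0.0119). Lair1, a collagen receptor, rose from 3.62 ± 0.489 to 11.3 ± 1.28 CPM, a log2 fold change of 1.64 (adjusted p = 0.0119). Clec12a, a lectin that binds uric acid crystals, rose from 22.1 ± 7.49 to 51.7 ± 4.92 CPM, a log2 fold change of 1.23 (adjusted p = 0.0243). With offsets for GC content and length Clec12a was not called (log2 fold change 0.93, adjusted p = 0.0684, range over 18 settings 8.51e-05 to 0.294).

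Downstream of the activating receptors, 12 of 38 genes were higher and none lower by edgeR, with a median log2 fold change of 0.80. Prkcd, a protein kinase C isoform, rose from 26.4 ± 4.02 to 51.1 ± 6.33 CPM, a log2 fold change of 0.96 (adjusted p = 0.0156). Yes1, a Src-family kinase, rose from 16.8 ± 2.33 to 31.8 ± 4.13 CPM (0.92, adjusted p = 0.0182). Pik3ap1, an adaptor to phosphoinositide 3-kinase, rose from 9.85 ± 3.16 to 26.0 ± 3.53 CPM (1.41, adjusted p = 0.0188).

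The inhibitory downstream list holds phosphatases and other general negative regulators beside those that ITIMs recruit. Of its 20 genes, 7 were higher and none lower, with a median of 0.65. Inpp5d, which encodes the lipid phosphatase SHIP1, stood at 18.4, 22.1 and 19.4 CPM in wild type, against 28.4, 32.7 and 36.0 CPM in knockout. It rose by a log2 fold change of 0.70 (SE 0.14, adjusted p = 0.0270). Ptpn6, which encodes SHP-1, had 16.9, 14.5 and 9.80 CPM in wild type, against 22.4, 22.7 and 27.0 CPM in knockout. It rose by 0.82 on the log2 scale (SE 0.20, adjusted p = 0.0467), and was not called with relative-log-expression scaling (adjusted p = 0.0508, range over 18 settings 0.00825 to 0.350). The knockout libraries of both phosphatase genes lay above the wild type. Ptpn12, a phosphatase of cytoskeletal proteins, rose from 29.2 ± 5.86 to 62.8 ± 2.41 CPM (1.11, adjusted p = 0.0149), and Lpxn, which encodes leupaxin, from 8.68 ± 2.34 to 17.4 ± 1.43 CPM (1.01, adjusted p = 0.0311). The ratio of Inpp5d to Syk counts was 0.676 ± 0.0996 in wild type, against 0.750 ± 0.0902 in knockout, and it overlapped.

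**Figure D5:**
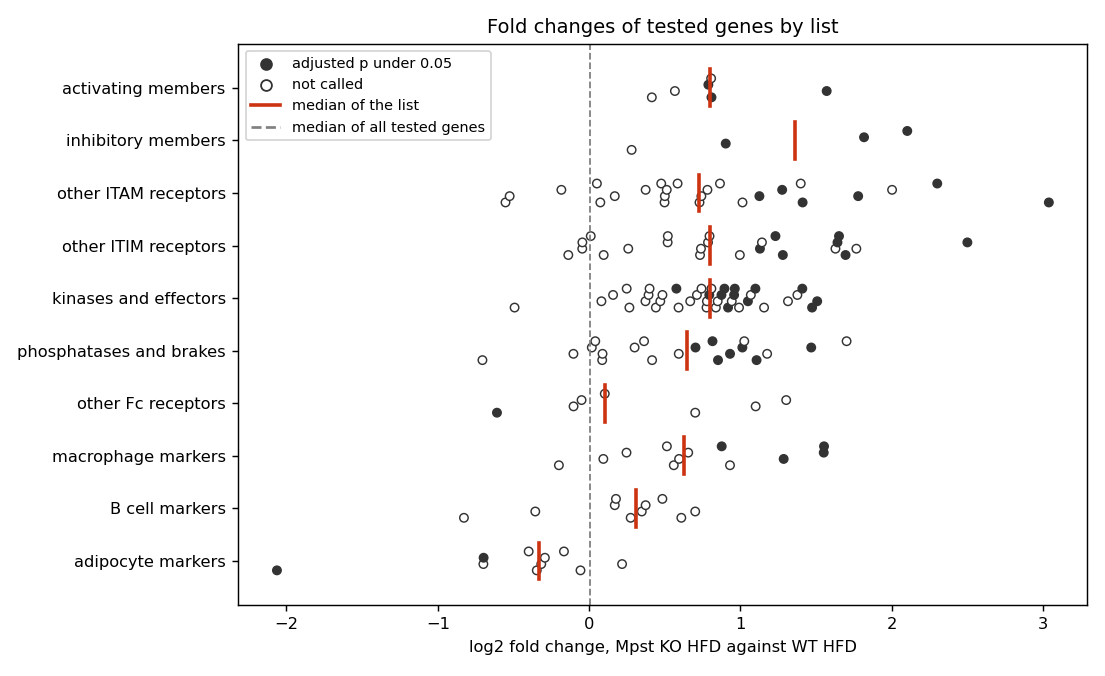
Log2 fold change (x axis) of each tested gene in the receptor, signalling and marker lists, with filled points for genes of adjusted p under 0.05, a bar at each list's median and a dashed line at the median of all tested genes (0.0052). The activating and inhibitory downstream lists have medians of 0.80 and 0.65.

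Genes of like profile were sought as a description, by Pearson r of log2 CPM over the 6 libraries, which share the genotype difference and the depth. Closest to the mean of the activating genes among 10690 candidates were Slc11a1, a phagosomal metal transporter (r = 0.997), Lcp2, the adaptor SLP-76 (0.996), Arhgap9 (0.995), Sla (0.994) and Ly9 (0.994). Closest to Cd22 among 12645 candidates were Pyroxd2 (0.997), Tlr2 (0.997), Snx30 (0.994) and Lilr4b (0.993). No test was made of these values.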

How the data were processed

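RNA sequencing of inguinal white adipose tissue gave 6 libraries (3 wild type, 3 Mpst knockout, all on a high-fat diet). Per the labels' protocols, RNA was extracted with TRIzol and sequenced as 75 bp single-end reads from TruSeq RNA v2 libraries. The submitters' processing notes name HISAT2 2.1.0, HTSeq 0.13.5, DESeq2 1.26 and mm10. The sources used here give neither the annotation nor the counting options. The authors deposited raw counts, whole numbers for each gene symbol. The counter's summary lines entered neither library sizes nor tests. Reads in no feature were 8.85% to 14.7% and ambiguous reads 1.63% to 1.83% of uniquely placed reads.

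Counts were fitted in R 4.3.3 with edgeR 4.0.16 (filterByExpr, trimmed mean of M-values, robust quasi-likelihood F test, genotype alone, 6 libraries), adjusted by Benjamini-Hochberg over 14065 genes with calls under 0.05. Standard errors were derived from F and the fold change. The common biological coefficient of variation was 19.5%. The script was tested on simulated data. No pair of replicates was close enough to be copies of 1 library. The members and the 19 other lists were chosen with earlier results of these data known. Named genes were the members, up to 3 called genes per direction with the smallest p from each pathway list (1 where none was called), Ptpn6, Inpp5d, Cd47, Trem2 and Mpst, 1 gene per marker list, and 5 genes of like profile for each of 2 profiles. Not all are printed, and the list genes named beyond this rule (B and T cell genes, Cd163, Fcrls, Fcer1a, Tesk1) were added after their values were seen. Some named genes are not reported here. Like profiles were sought on log2 CPM (prior count 2) among genes of at least 5 CPM on average (1 CPM for Cd22). Positions, lengths and transcripts came from GENCODE M21 on GRCm38, the assembly behind mm10. Alternatives were relative-log-expression and upper-quartile scaling, limma-voom (limma 3.58.1), DESeq2 1.42.0, a minimum of 10 CPM, testing without the low-count filter, the replicate block, no robust estimation, each library left out, offsets for GC content and length with and without the block and, added after seeing the data, thinned libraries and leaving out the 2 libraries highest in muscle transcripts.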

Additional observations from a re-analysis of the deposited data

How the results depend on the processing

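Over all tested genes 669 were higher and 373 lower (64.2% higher). DESeq2 called 1074 and 894 (54.6% higher), and offsets for GC content and length 392 and 394 (49.9% higher). With the replicate number as a block the counts were 1387 and 1289 (51.8% higher), and with the block and the offsets 848 genes were higher and 1143 lower (42.6% higher). Same-numbered libraries had correlations of 0.17, −0.099 and 0.30 between their deviations, and not every library correlated best with its own number. These few values give no clear sign that the numbers pair the libraries, and they cannot exclude it. The block left the same 3 activating and 3 inhibitory genes called, and with the offsets 5 activating genes were called. With each library left out, 0 to 1434 genes were higher and 1 to 1167 lower, 0 to 3 activating and 0 to 3 inhibitory genes were called, and the median activating minus inhibitory log2 fold change ran from −0.67 to −0.53. The count of 0 came without wild-type replicate 2, where 2746 genes had an unadjusted p under 0.05 in edgeR.

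Without the 2 libraries highest in muscle transcripts, a setting chosen after seeing the data, edgeR called 0 genes higher and 1 lower, with 0 activating and 0 inhibitory genes called. At an unadjusted p under 0.05 this fit held 1888 genes, 6 of the 10 members among them, and the cause was not tested beyond the loss of 2 of 6 libraries. No other tool was run on fewer libraries. A minimum of 10 CPM left 1 inhibitory gene called and a median difference of 0.20, since Fcgr4, Cd72 and Cd22 were not tested. Cd47 reversed to −0.082 with the GC and length offsets and to −0.059 with the block added. The cause was not tested. Of 917 values of 52 named genes under other settings, 678 kept direction and side of the threshold, 200 fell short of it, 37 passed it newly and 2 reversed, both for Cd47. DESeq2 called 19 of 38 downstream activating genes higher and 1 lower, Src, against 12 and 0 with edgeR, and 4 against 1 of the T cell markers and 4 against 0 of the natural killer cell markers. Among the 10 members Cd22 had the fewest counts, 7 to 95 per library.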
